A study of Rattus norvegicus with 16 samples.

Results

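The genes described here are the keratins, the desmosome genes and the genes of the cornified envelope, taken by name from a rat expression array. A gene was included when its symbol was a numbered keratin (Krt), a desmocollin or desmoglein (Dsc, Dsg), a plakophilin (Pkp) or a small proline-rich protein (Sprr), or was Dsp, Jup, Ppl, Evpl, Ivl or Lor. This gave 67 of the 26115 gene names on the array, 47 of them keratins. They were read by 70 of 30367 probes, and where a gene had several probes (2 for Krt7, 3 for Krt78) the one with the highest mean Cy5 signal was used. No probe carried the name Krt6a. The samples came from suckling Wistar rats (Wistar Han in the study's methods) that were given saline (C) or obestatin at 250 nmol/kg body weight (OH) into the gastrointestinal tract, 2 times daily between day 14 and day 21 of life, when they were killed. Obestatin is a peptide cut from the precursor of ghrelin. Total RNA from the stomach and from the mid part of the intestine was labelled with Cy5 and hybridised against a Cy3 reference pooled from the RNA of all rats. The 16 arrays fell into 4 groups of 4, by tissue (stomach or middle intestine) and treatment (C or OH). All rats were of 1 strain and age and were handled by the same gavage. The labels do not state the part of the stomach that was sampled, the sex of the rats or which stomach and intestine came from the same rat.

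Keratins are the intermediate filament proteins of epithelial cells. A type I and a type II keratin pair to form each filament, and the pair differs with the kind of epithelium: KRT5 and KRT14 in the basal layer of stratified epithelia, KRT4 and KRT13 above it in mucosae, KRT1 and KRT10 above it in cornifying epithelia, KRT8 and KRT18 in simple epithelia. The filaments end at desmosomes, cell junctions in which desmocollins and desmogleins span the membrane and plakoglobin (JUP), plakophilins and desmoplakin (DSP) form the plaque. In the outermost layers of squamous epithelium a cornified envelope is built from loricrin, involucrin and small proline-rich proteins on a scaffold of envoplakin and periplakin. The stomach of the rat holds a non-glandular forestomach lined by keratinised stratified squamous epithelium beside the glandular stomach, whereas the small intestine is lined by simple columnar epithelium.

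Stretches of 5 promoters are shown because they belong to the members with the largest difference between the tissues (Sprr1a, Krt10), a basal keratin (Krt5), the keratin with the opposite pattern (Krt20) and a plaque gene found in both tissues (Jup). They end at the base before the RefSeq start site, are written 5′ to 3′ in the direction of transcription from the GRCr8 assembly, and all lie on the minus strand. Capitals mark matches to TATAAA (the TATA box), TGANTCA (the core AP-1 site) and GGGCGG (the GC box), searched on both strands, so that a GC box on the other strand reads CCGCCC.
Sprr1a promoter, chr2:180752626-180752775: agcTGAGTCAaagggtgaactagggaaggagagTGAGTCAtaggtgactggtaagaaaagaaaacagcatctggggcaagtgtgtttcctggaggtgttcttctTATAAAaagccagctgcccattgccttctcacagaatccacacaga
Krt10 promoter, chr10:84839161-84839260: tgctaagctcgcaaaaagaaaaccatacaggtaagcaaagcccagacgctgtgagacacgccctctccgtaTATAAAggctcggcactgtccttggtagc
Krt5 promoter, chr7:134730570-134730669: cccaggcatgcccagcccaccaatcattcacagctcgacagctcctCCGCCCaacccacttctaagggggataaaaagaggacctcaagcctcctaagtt
Krt20 promoter, chr10:84890286-84890385: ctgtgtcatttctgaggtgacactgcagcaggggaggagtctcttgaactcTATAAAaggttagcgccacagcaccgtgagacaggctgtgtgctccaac
Jup promoter, chr10:85827430-85827529: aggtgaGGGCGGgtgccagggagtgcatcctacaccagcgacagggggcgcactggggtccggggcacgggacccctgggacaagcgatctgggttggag
Of the 67 members, 50 were matched by symbol to a RefSeq promoter of 300 bases (250 before the start site and 50 after) and 17 were not. A member was counted if any promoter of its symbol held a match, whereas the share over all promoters counts each promoter. A gene with several promoters thus had more chances, and the shares are not strictly alike. TATAAA was found in 24 of these 50 (48%) against 14.2% of all 33469 promoters. It was found in 22 of 35 keratins and in 0 of 11 desmosome genes, and Krt10 and Krt20, which went opposite ways between the tissues, both held it. GGGCGG was found in 14 of 50 members against 33.1% of all promoters, 7 of them among the 11 desmosome genes. TGANTCA was found in 4 of 50 (Krt4, Krt8, Sprr1a and Sprr1b) against 7.33% of all promoters. Sprr1a held it 2 times, starting 147 and 117 bases before the start site. These are matches of letters and say nothing of binding.

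Each group lay on 1 slide, and the OH slides were scanned apart from the C slides, so treatment cannot be told apart from slide and scan, nor tissue from slide. The median Cy3 signal of the reference was 188 to 195 on the C slides and 341 to 399 on the OH slides. Between 69.4% and 77.6% of probes were well above background in Cy5 on each array. Mucosal marker genes went with the tissue labels: all 10 genes of oxyntic and surface stomach mucosa passed the test as higher in stomach, and 10 of 11 enterocyte genes as lower, in C and in OH rats alike. Genes of other tissues were also higher in stomach. These were 10 of 13 striated muscle genes in C and 2 of 13 in OH, and 6 of 8 pancreas genes in C and 5 of 8 in OH. The source of this RNA was not tested. Among the C stomach arrays replicate 2 stood apart. Its mean log2 ratio over 13 striated muscle genes was -0.91, against 2.96 to 3.64 on the other 3 and -0.45 to 1.02 in OH stomach. Results that rest on C stomach replicate 2 are given with and without it.

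The log2 ratio of a gene compares its Cy5 signal with the reference, so a value of 0 is the level of the pool, and ratios are compared only between arrays and not between genes. A probe was tested if every array of some group read it well above background, and 46 of the 67 members passed. In C rats 35 members were higher in stomach than in middle intestine, 2 were lower and 9 did not pass the threshold (limma, adjusted p under 0.05 over 21174 probes). Over all probes tested, 44.9% differed between the C tissues, 22.7% higher and 22.3% lower in stomach. In OH rats, measured on other arrays, 29 members were higher in stomach, 4 were lower and 13 did not pass, where 38.2% of all probes differed, 19.2% higher and 19.1% lower. The median difference was 1.76 in C and 1.46 in OH on the log2 scale, and -0.01 and 0.01 over all probes tested. The filter itself favours a difference for 9 members that were above background on all arrays of a group only in stomach. Among the other 37, which passed in both tissues, 27 were higher, 2 lower and 8 not called in C, and 22, 4 and 11 in OH. The 4 arrays of C stomach lay wholly above those of C middle intestine for 33 of the 46 members and wholly below for 2, against 21.6% and 22.1% of all probes tested. In a bulk sample, fewer cells of a type and less RNA per cell cannot be told apart.

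**Figure D1:**
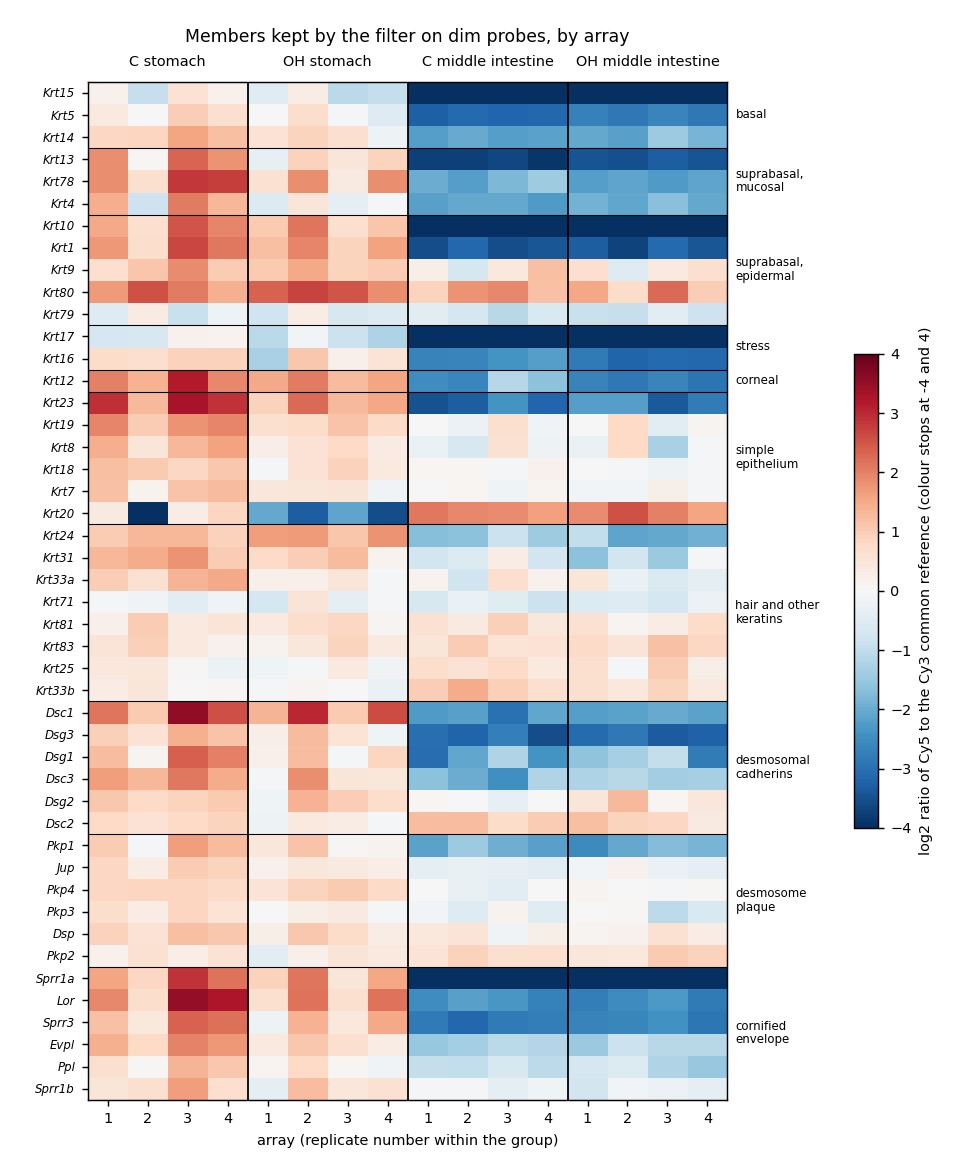
Log2 ratio of Cy5 to the common reference (colour, from -4 in blue to 4 in red, where the scale stops) for the 46 members kept by the filter (rows, by class) on each of the 16 arrays (columns, by group). Most keratins of stratified epithelium, Dsc1, Dsg1, Dsg3, Dsc3 and the genes of the cornified envelope are blue on intestine arrays and nearer to red on stomach arrays. Some, such as Krt17, are below 0 on several stomach arrays, and Krt80 is above 0 on all arrays. Krt20 is red on intestine arrays and blue on OH stomach arrays, and read 0.35, -4.64, 0.31 and 0.85 on C stomach arrays.

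Most keratins of stratified epithelium were higher in stomach than in intestine. Krt5, Krt14 and Krt15, the basal keratins, were all higher in stomach, with a median difference of 3.68 in C and 2.79 in OH. Krt5, the type II basal keratin, read 0.39, -0.02, 0.99 and 0.65 on C stomach arrays 1 to 4 and -3.27, -3.11, -3.17 and -3.14 in C middle intestine. In OH rats it read -0.02, 0.69, -0.07 and -0.52 in stomach and -2.70, -2.85, -2.65 and -2.85 in intestine. The tissues did not overlap, the intestine arrays lay close together, and the difference was 3.68 ± 0.23 (SE; adjusted p = 1.1e-08) in C and 2.79 in OH. Its partner Krt14 differed by 3.26 ± 0.23 in C (adjusted p = 4.4e-08) and by 2.36 in OH (adjusted p = 1.4e-06). Krt15, a basal type I keratin, read 0.18, -0.91, 0.59 and 0.18 in C stomach and -4.87, -4.95, -5.00 and -4.75 in C middle intestine, a difference of 4.90 ± 0.30 (adjusted p = 1.1e-08).

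Krt13 and Krt4, the pair of suprabasal mucosal cells, were also higher in stomach but varied more among the stomach arrays. Krt13 read 1.86, 0.04, 2.32 and 1.81 in C stomach and -0.34, 0.91, 0.47 and 0.89 in OH stomach. In middle intestine it read -3.72, -3.73, -3.65 and -3.89 in C and -3.47, -3.51, -3.30 and -3.47 in OH. The low array of C stomach was replicate 2, at 0.04, and it was still far above every intestine array. The difference between the tissues was 5.25 ± 0.38 in C (adjusted p = 6.8e-08) and 3.92 in OH (adjusted p = 1.6e-06). Krt4 read 1.45, -0.84, 2.09 and 1.32 in C stomach and -2.18, -2.05, -2.06 and -2.28 in C middle intestine, and differed by 3.15 ± 0.45 in C (adjusted p = 5.8e-05) and 1.80 in OH (adjusted p = 0.0053). Krt78, a type II keratin, differed by 3.87 in C and 3.34 in OH, and its 2 other probes gave 5.85 and 4.49 in C.

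Krt1 and Krt10, the pair of cornifying cells, were among the members with the largest difference. Krt10 read 1.50, 0.63, 2.53 and 1.95 in C stomach and -5.17, -5.06, -5.02 and -4.53 in C middle intestine. In OH rats it read 1.05, 2.14, 0.66 and 1.10 in stomach and -4.30, -4.58, -4.31 and -4.67 in intestine. This was a 96.8-fold difference in C (log2 difference 6.60 ± 0.35, adjusted p = 2.7e-09) and a log2 difference of 5.70 in OH. Krt1 differed by 5.21 ± 0.33 in C (adjusted p = 1.6e-08) and 4.80 in OH. Of the 7 suprabasal epidermal keratins, Krt2 and Krt77 were left out by the filter, Krt9 and Krt79 were not called in either treatment, and Krt80 was called only in OH (0.97, adjusted p = 0.036, against 0.50 and adjusted p = 0.25 in C). The genes of the stress keratins, which are known from wounded epidermis, were both higher in stomach. Krt17 differed by 4.57 ± 0.25 in C (adjusted p = 3e-09) and 3.51 in OH. Krt16 was not above background on any intestine array and was at least 6.62-fold higher in stomach in C (adjusted p = 3.2e-06) and at least 4.86-fold in OH. Such bounds are on the Cy5 signal and compare the stomach mean with, per array, the larger of the probe's own signal and the lowest signal well above background. An adjusted p given beside a bound is that of the log2 ratios and does not test the bound. Krt12, named for the corneal epithelium, differed by 4.09 ± 0.36 in C and 4.38 in OH.

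**Figure D2:**
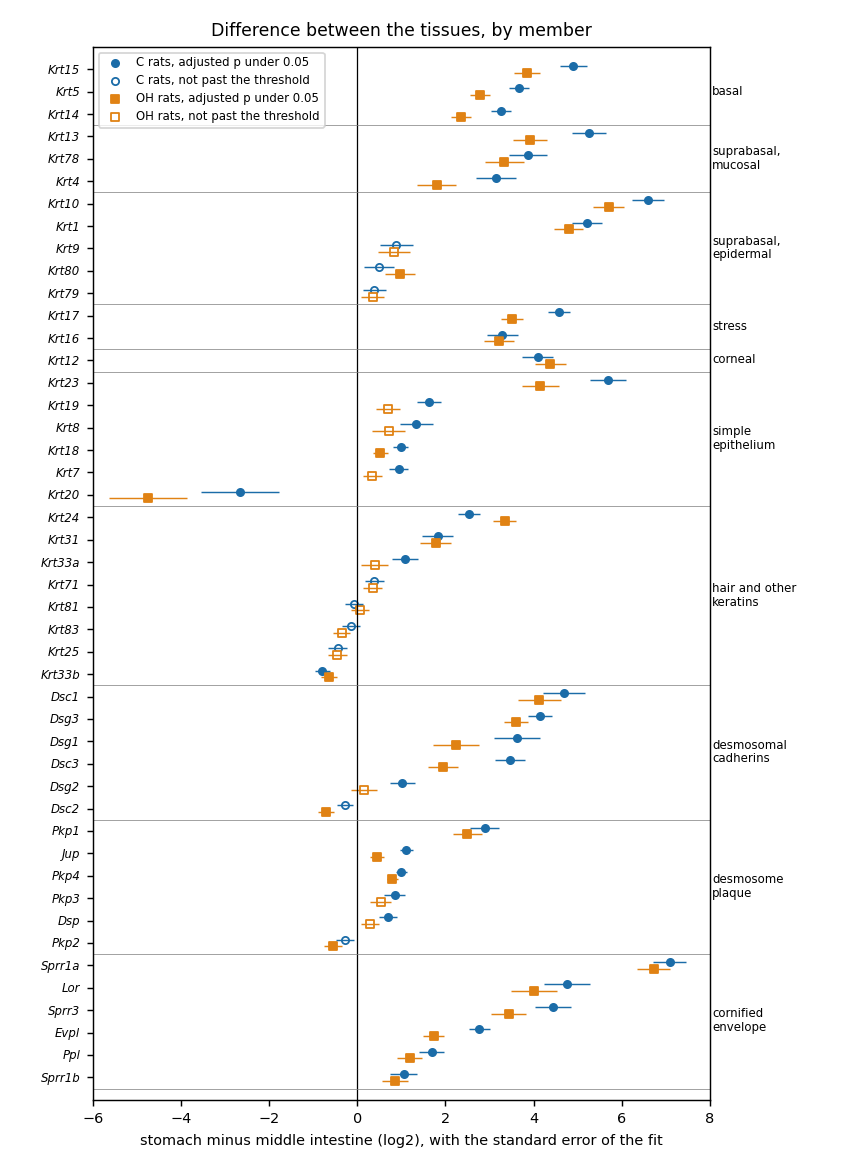
Difference between stomach and middle intestine (log2, x axis) for the 46 members kept (y axis, by class) in C rats (blue circles) and OH rats (orange squares), with the standard error of the fit as bars and filled marks where the adjusted p was under 0.05. Sprr1a lies farthest to the right, at 7.09 in C and 6.73 in OH, and Krt20 farthest to the left, at -2.67 and -4.74.

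The genes of the cornified envelope that could be tested were all higher in stomach, 6 of 6 in C (median 3.60) and 6 of 6 in OH (median 2.58). Sprr1a, a small proline-rich protein of the envelope, had the largest difference of any member. It read 1.58, 0.83, 2.89 and 2.18 in C stomach and 0.92, 2.13, 0.50 and 1.53 in OH stomach. In middle intestine it read -5.16, -5.06, -5.28 and -5.37 in C and -5.48, -5.50, -5.17 and -5.68 in OH. The lowest stomach array was thus far above the highest intestine array, and the fold was 136 in C (7.09 ± 0.38 on the log2 scale, adjusted p = 2.6e-09) and 106 in OH (6.73, adjusted p = 4.9e-09). Lor, which encodes loricrin, read 1.93, 0.71, 3.51 and 3.24 in C stomach and -2.48, -2.17, -2.33 and -2.69 in C middle intestine. It varied more in stomach than in intestine (SD 1.29 against 0.22, n = 4 arrays each) and differed by 4.77 ± 0.52 (adjusted p = 4.6e-06). Sprr3 differed by 4.44 ± 0.41 in C and 3.43 in OH, and Sprr1b by 1.05 (adjusted p = 0.011) and 0.86 (adjusted p = 0.037). The probes of Sprr1b and Sprr3 share 44 of 60 bases when laid side by side without gaps, so their signals may not be fully separate.

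The scaffold genes of the envelope were also higher in stomach. Evpl, which encodes envoplakin, read 1.44, 0.80, 1.99 and 1.72 in C stomach and -1.52, -1.35, -1.08 and -1.18 in C middle intestine. Its difference was 2.77 ± 0.23 in C (adjusted p = 3.2e-07) and 1.73 in OH (adjusted p = 3.8e-05). Ppl, which encodes periplakin, differed by 1.69 ± 0.28 in C (adjusted p = 0.00025) and 1.19 in OH (adjusted p = 0.0041). Ivl, the gene of involucrin, was left out by the filter because it was well above background on 3 of 4 arrays in each stomach group and on none in intestine. It read 2.26, 1.07, 4.34 and 3.19 in C stomach and 1.15, 2.57, 1.41 and 2.63 in OH stomach.

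The desmosomal cadherins split by isoform. Dsc1, Dsc3, Dsg1 and Dsg3, the isoforms known from stratified epithelium, were not above background on any intestine array and were higher in stomach in both C and OH. They passed the filter only through stomach, which favours such a call. Dsg3 read 0.94, 0.57, 1.44 and 1.13 in C stomach, 0.26, 1.26, 0.54 and -0.19 in OH stomach, and between -3.55 and -2.74 in C middle intestine. The log2 difference of its ratios was 4.14 ± 0.27 in C (adjusted p = 2.1e-08) and 3.59 in OH (adjusted p = 1e-07), set against intestine values that were not above background. Dsc1 read 2.13, 1.03, 3.55 and 2.57 in C stomach and was at least 16.2-fold higher there (adjusted p = 2.2e-06), and at least 9.18-fold in OH (adjusted p = 9.1e-06). For Dsg1 the bounds were 7.3-fold in C (adjusted p = 6.9e-05) and 4.13-fold in OH (adjusted p = 0.0036). For Dsc3 they were 4.65-fold in C (adjusted p = 1.5e-06) and 2.33-fold in OH (adjusted p = 0.00038).

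Dsc2 and Dsg2, the isoforms known from simple epithelia, were above background on all 16 arrays. Dsc2 read 0.80, 0.58, 0.80 and 0.89 in C stomach and 1.23, 1.24, 0.75 and 1.00 in C middle intestine. In OH rats it read -0.20, 0.40, 0.29 and -0.09 in stomach and 1.20, 0.88, 0.81 and 0.35 in intestine. The C tissues overlapped (-0.29, adjusted p = 0.22), whereas in OH it was lower in stomach (-0.71, adjusted p = 0.0069). Dsg2 was higher in stomach in C (1.03, adjusted p = 0.01) and differed by 0.15 in OH (adjusted p = 0.72), where its stomach arrays ran from -0.17 to 1.41 and its intestine arrays from 0.08 to 1.31. Dsg4 was not above background on any array.

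Plaque genes were above background on all 16 arrays and differed less between the tissues, with a median of 0.92 in C (5 of 6 higher) and 0.49 in OH (3 higher, 1 lower). Jup, the gene of plakoglobin, read 0.84, 0.30, 1.02 and 0.89 in C stomach and -0.35, -0.29, -0.34 and -0.44 in C middle intestine. In OH rats it read 0.16, 0.44, 0.35 and 0.26 in stomach and -0.11, 0.18, -0.27 and -0.38 in intestine. Its difference was 1.11 ± 0.15 in C (adjusted p = 4.2e-05) and 0.45 in OH (adjusted p = 0.032). Dsp, which encodes desmoplakin, the link to keratin filaments, differed by 0.70 ± 0.20 in C (adjusted p = 0.012) and 0.29 in OH (adjusted p = 0.28). The plakophilins spanned the class. Pkp1, the isoform of stratified epithelia, differed by 2.89 ± 0.33 in C and 2.49 in OH, Pkp4 by 1.00 ± 0.12 (adjusted p = 1.6e-05) and 0.79 (adjusted p = 0.00015), and Pkp3 by 0.84 (adjusted p = 0.0086) and 0.53 (adjusted p = 0.086). Pkp2, an isoform known from simple epithelia and heart, gave -0.28 in C (adjusted p = 0.27) and was lower in stomach in OH (-0.55, adjusted p = 0.046). The OH call of Pkp2 was lost in many other settings, such as when only the OH arrays were fitted (adjusted p = 0.12).

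**Figure D3:**
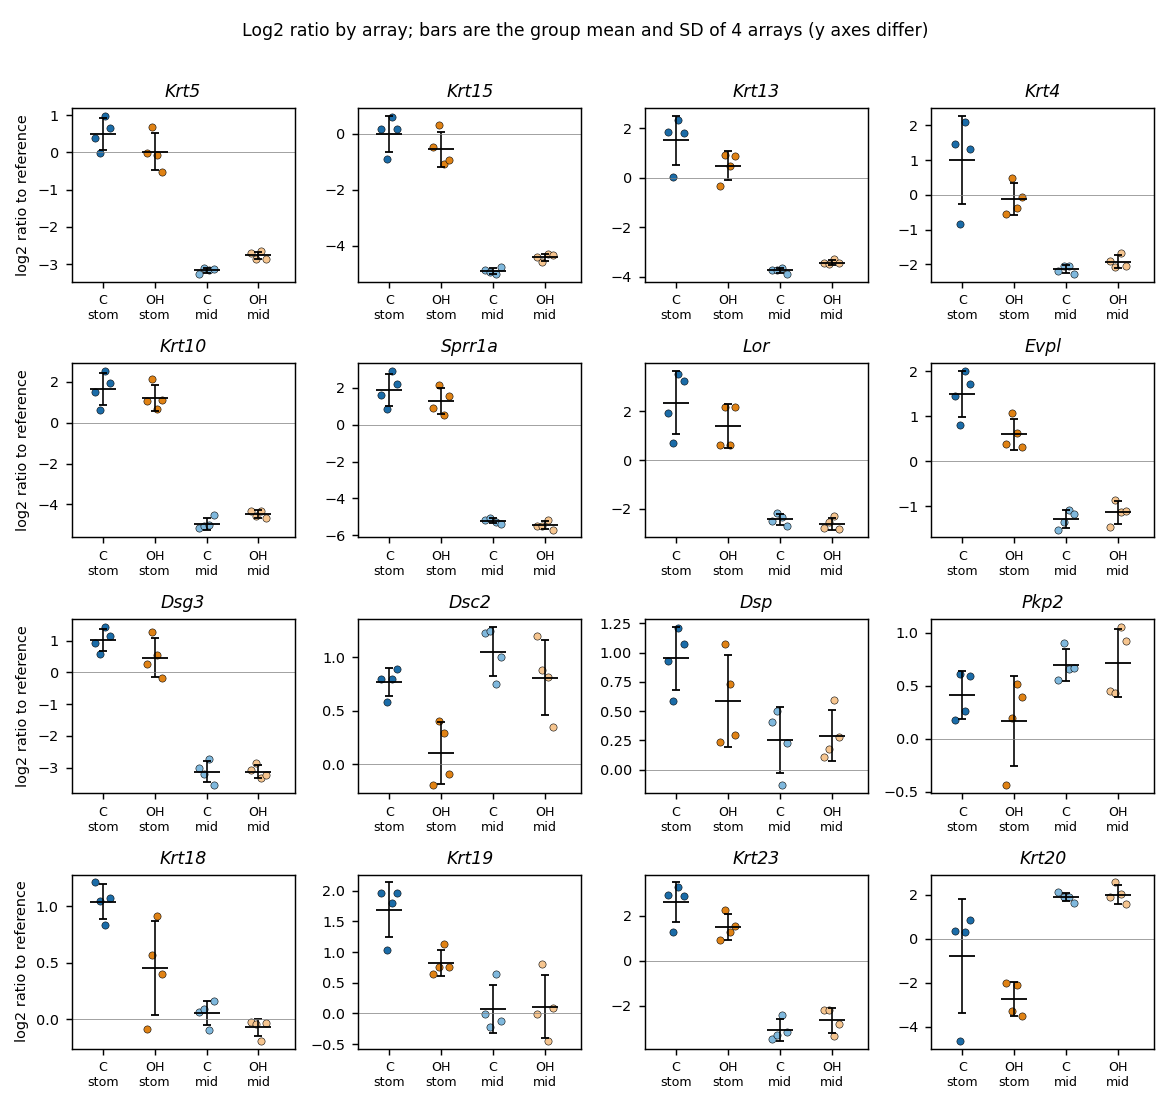
Log2 ratio to the reference (y axis, which differs between panels) on each array (points) for 16 members in the 4 groups (x axis; stom is stomach, mid is middle intestine), with the group mean and SD of 4 arrays as bars. The stratified members (upper rows) separate the tissues with no overlap, Dsc2, Dsp, Pkp2 and Krt18 overlap or lie close, and in the Krt20 panel C stomach replicate 2 lies at -4.64, far below the other 3 C stomach arrays.

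Among the 6 keratins of simple epithelium, 5 were higher and 1 was lower in stomach in C, and 2 higher and 1 lower in OH. Krt23, a type I keratin, had the largest gain, with 2.94, 1.30, 3.31 and 2.88 in C stomach and -3.49, -3.29, -2.40 and -3.16 in C middle intestine. It differed by 5.69 ± 0.42 in C (adjusted p = 7.4e-08) and 4.16 in OH (adjusted p = 2.2e-06). Krt18 read 1.21, 1.04, 0.84 and 1.07 in C stomach and 0.07, 0.09, -0.09 and 0.16 in C middle intestine. In OH stomach it read -0.09, 0.56, 0.91 and 0.40, and replicate 1 overlapped with the intestine arrays. Its difference was 0.98 ± 0.16 in C (adjusted p = 0.00023) and 0.52 in OH (adjusted p = 0.021). Its partner Krt8 differed by 1.34 ± 0.38 (adjusted p = 0.01) and 0.71 (adjusted p = 0.15). Krt19 gave 1.62 ± 0.27 (adjusted p = 0.00025) and 0.71 (adjusted p = 0.053), and Krt7, known from ductal epithelia, gave 0.94 (adjusted p = 0.003) and 0.34 (adjusted p = 0.23).

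Krt20, a keratin of the differentiated cells of the intestine and of the stomach surface, went the other way. It read 2.12, 1.91, 1.89 and 1.63 in C middle intestine and 1.89, 2.55, 2.01 and 1.56 in OH middle intestine. In stomach it read 0.35, -4.64, 0.31 and 0.85 in C and -2.04, -3.29, -2.11 and -3.53 in OH. All intestine arrays lay above all stomach arrays, and C stomach replicate 2 lay below every OH stomach array while the other 3 lay above them. The SD was 2.59 in C stomach and 0.20 in C middle intestine (n = 4 arrays each). The difference was -2.67 ± 0.88 in C (adjusted p = 0.024), a call that was lost when only the C arrays were fitted (adjusted p = 0.076), and -4.74 in OH (adjusted p = 0.00068). Without C stomach replicate 2 the C difference was -1.38 and still passed the threshold. Over the 11 enterocyte genes listed, 6 values were above 0 for OH minus C in stomach, with a median of 0.10 and a range from -1.61 to 0.48. Genes of this list went different ways. Fabp2 read -1.15, -3.18, -1.33 and -0.83 in C stomach and -4.14, -2.94, -3.38 and -2.49 in OH stomach. Apoa4 read -3.08, -3.12, -3.24 and -3.16 in C stomach and was higher in OH stomach, at -2.48, -2.74, -2.65 and -2.83. The part of such cells in the Krt20 values was not tested.

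The hair, inner root sheath and related keratins were mostly not detected. Of 24 such members 8 passed the filter, with a median difference of 0.16 in C and 0.21 in OH. Krt24 was not above background on any intestine array and was at least 3.52-fold higher in stomach in C and at least 5-fold in OH. Krt31 was at least 3.1-fold higher in C, with a probe that shares 34 of 60 bases with that of Krt16. Krt33a was called in C (1.08, adjusted p = 0.0091) and not in OH (0.39, adjusted p = 0.33). It was above background on 3 C stomach arrays, 4 OH stomach arrays and 1 array of each intestine group, so its differences rest largely on dim intestine values. Krt24, Krt31 and Krt33a passed the filter only through stomach, which favours a call of higher there. Krt33b was the only member besides Krt20 that was lower in stomach in both, by -0.79 ± 0.17 in C (adjusted p = 0.0021) and -0.64 in OH (adjusted p = 0.0097). It read 0.31, 0.48, 0.01 and 0.09 in C stomach and 0.98, 1.48, 0.96 and 0.65 in C middle intestine. Krt25, Krt71, Krt81 and Krt83 were not called in either. Of the 21 members left out by the filter, 14 were not above background on any array, and 4 were above it on some stomach arrays and on no intestine array (Ivl, Krt72, Krt76 and Krt77).

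The calls of the tissue comparison were shared by 28 members that were higher in stomach in C and in OH and by 2 that were lower in both. Dsg2, Dsp, Krt7, Krt8, Krt19, Krt33a and Pkp3 were called higher only in C, Krt80 only in OH, and Dsc2 and Pkp2 were called lower only in OH. The test of the difference between these comparisons, which is also the difference between the treatment effects of the tissues, called 0 members and 0% of all probes, so no member was shown to differ in this.

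The members lie in a few gene clusters on the array design's rn4 coordinates. On chromosome 10, between 88180396 and 89194517, lay 26 keratins, of which 12 were higher in stomach in C, 2 lower (Krt20 and Krt33b), 2 not called and 10 not tested. On chromosome 7, between 140096117 and 140717949, lay 18 keratins, of which 5 were higher, 4 not called and 9 not tested. All 7 desmosomal cadherins lay on chromosome 18 between 11831075 and 12364338, with 5 higher, 1 not called and 1 not tested. The envelope precursor genes Sprr1a, Sprr1b, Sprr3, Lor and Ivl lay on chromosome 2 between 184953840 and 185556361, with 4 higher and 1 not tested. The design gives no place for Krt5, Krt18 and Krt71. Neighbours within a cluster thus went different ways, such as Krt10 and Krt20.

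Genes of squamous differentiation that are not members were counted in the same way, from a list that holds the transglutaminases, filaggrin and other genes of the squamous programme. Of 45 such genes listed, 42 were on the array and 39 were tested. In C 32 were higher in stomach and 1 was lower, with a median of 2.85, where 22.7% of all probes were higher. In OH 29 were higher and 2 lower, with a median of 2.32, where 19.2% of all probes were higher. The list was chosen with earlier results of these data known. The 6 genes not called in C were Alox12b, Bnc1, Col17a1, Itga6, Ovol1 and Tgm3. Examples in C were 6.03 for Calml3, a calmodulin-like protein, 5.58 for Scel, the envelope protein sciellin, and 5.29 for Lgals7, a galectin of stratified epithelium. The gene lower in C was Klf5 (-1.36), a factor also known from intestinal crypts.

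The comparison of OH with C asked what obestatin changed in each tissue. In stomach 0 members passed the threshold, as did 0% of all 21174 probes, although 2247 probes had an unadjusted p under 0.05. The values of the members nevertheless lay to 1 side. The difference (OH minus C) was below 0 for 43 of the 46 members and for 48.8% of all probes, with a member median of -0.55 and a range from -1.96 to 0.43. The values above 0 were 0.43 for Krt24, 0.41 for Krt80 and 0.04 for Krt71. Before adjustment 14 members had a p under 0.05, all with lower values in OH, against 5.22% of all probes. Members measured in the same RNA are not independent, and this count is not a test of the group.

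The medians by class were -1.02 for the mucosal keratins, -0.80 for the simple keratins, -0.68 for the cornified envelope, -0.63 for the stress keratins, -0.61 for the desmosomal cadherins, -0.56 for the basal keratins, -0.52 for the corneal Krt12, -0.41 for the plaque, -0.11 for the hair and related keratins and -0.10 for the epidermal keratins. Stomach arrays of OH and C overlapped for 44 members, and those of OH lay wholly below C for Dsc2 and Krt33a. These are 2 of 46 members against 3.51% of all probes, a share near the background. Evpl had the smallest p: it read 0.38, 1.07, 0.63 and 0.31 in OH stomach against 1.44, 0.80, 1.99 and 1.72 in C stomach. The value was -0.89 ± 0.23 (adjusted p = 0.25), and OH replicate 2 lay within the C range. Dsc2 followed with -0.67 ± 0.18 (adjusted p = 0.28) and Krt18 with -0.59 ± 0.16 (adjusted p = 0.28). Sprr1a, the member with the largest gap between the tissues, gave -0.60 (adjusted p = 0.60), and the largest value, -1.96 for Krt20, had an adjusted p of 0.46.

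**Figure D4:**
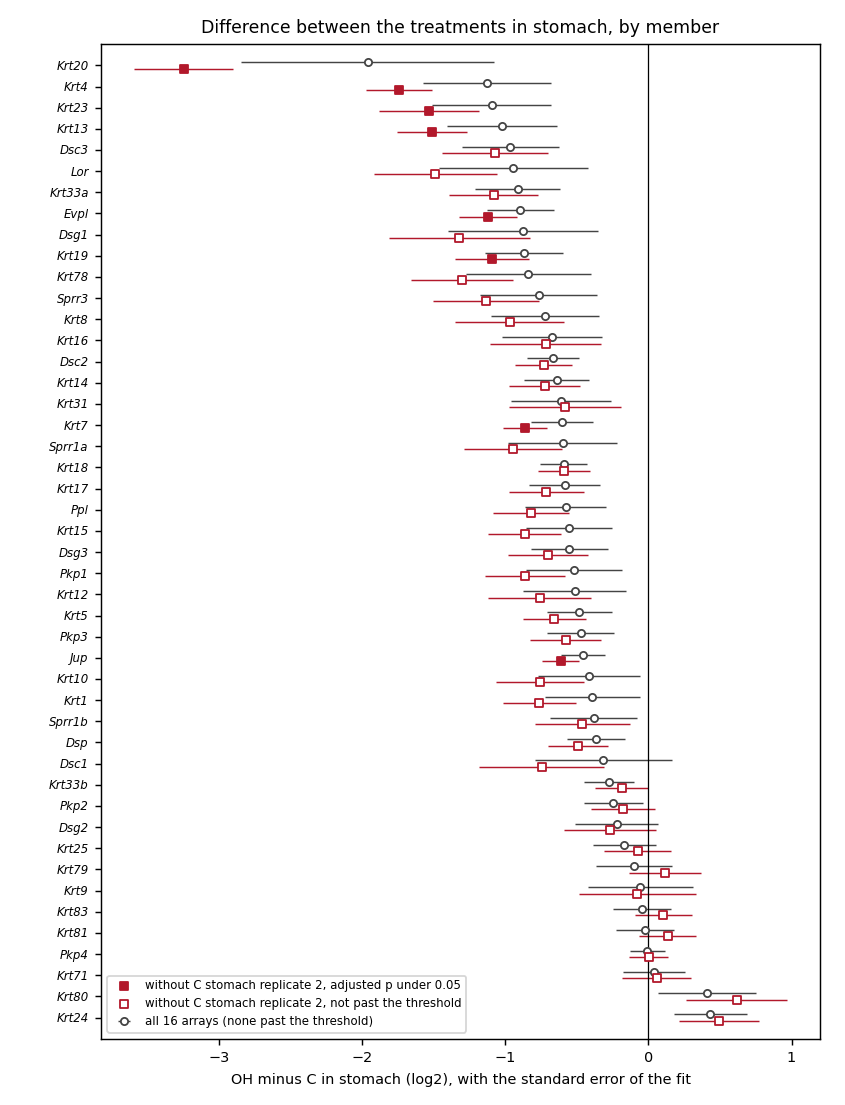
OH minus C in stomach (log2, x axis) for the 46 members (y axis), with the standard error of the fit, over all 16 arrays (grey circles) and without C stomach replicate 2 (red squares, filled where the adjusted p was under 0.05). Most values lie left of 0 in both fits, and leaving out the 1 array moves Krt20 from -1.96 to -3.25 and Krt4 from -1.12 to -1.74.

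The calls in this comparison depended on C stomach replicate 2. The member median was below 0 with all arrays (-0.55), without C stomach replicate 2 (-0.74) and without C stomach replicate 3 (-0.38). Replicate 3 was the highest C stomach array for 29 of the 46 members, and replicate 2 was the lowest for 30. Without it 9 of 48 members tested were lower in OH, against 1.83% of 21554 probes: Evpl (-1.12, adjusted p = 0.0088), Jup (-0.61, adjusted p = 0.024), Krt4 (-1.74, adjusted p = 0.00086), Krt7 (-0.86, adjusted p = 0.0082), Krt13 (-1.51, adjusted p = 0.0038), Krt19 (-1.09, adjusted p = 0.047), Krt20 (-3.25, adjusted p = 0.0001), Krt23 (-1.53, adjusted p = 0.037) and Krt76. Krt76 was tested only because this array, where it is low, was left out: it was above background on the other 3 C stomach arrays and on no OH stomach array, so its call follows from the filter and no size is given. These 9 were named after their values were seen. Leaving out the array on which most members were lowest raises their C means and so favours such calls. The count beside 1.83% is therefore not a test of the members. With array weights 11 members were lower in OH (3.02% of probes), and with the one-way analysis of variance and Tukey's HSD that the methods name, 5 were lower (1.75% of probes): Dsc2, Evpl, Jup, Krt18 and Krt19. In that analysis only the test over the 4 groups was adjusted over probes, and a difference between the tissues can pass it. The Tukey p for OH against C was not adjusted over probes, so these 5 calls are not held to the threshold of the main fit.

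The arrays differed together in several gene groups. The mean over the 46 members was 1.03, 0.49, 1.46 and 1.22 on C stomach arrays 1 to 4 and 0.22, 0.97, 0.46 and 0.44 on OH stomach arrays. Over the 39 other squamous genes it was 1.05, 0.17, 1.68 and 1.30 in C and 0.25, 0.99, 0.18 and 0.40 in OH. All 39 of them had values below 0 for OH minus C (median -0.57), against 48.8% of all probes. Of these 39, 0 passed the threshold and 7 had an unadjusted p under 0.05. The list was chosen with earlier results of these data known, so it is no independent check of the members. C replicate 2 and OH replicate 2 were thus the lowest and the highest of their groups in both lists. Over 13 striated muscle genes (18 listed) the means were 3.43, -0.91, 2.96 and 3.64 in C and 1.02, -0.30, -0.45 and 0.65 in OH, with 12 of 13 values below 0, and over 7 smooth muscle genes -2.22, -2.57, -1.49 and -2.10 in C and 0.91, -1.47, -2.57 and 0.08 in OH, with 7 of 7 above 0. Over 4 mesothelium genes, a cell layer that also holds keratins, they were 1.08, 0.13, 1.82 and 0.65 in C and 0.05, 0.06, 0.52 and 0.03 in OH, with 4 of 4 values below 0 (median -0.84). Over 10 oxyntic and surface mucosa genes they were 3.19, 3.60, 3.03 and 2.79 in C and 2.30, 3.34, 3.22 and 2.98 in OH, where the groups overlapped. All 10 oxyntic and 7 smooth muscle genes were above background on all stomach arrays. The part of the makeup of the tissue pieces in the lower member values was not tested.

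**Figure D5:**
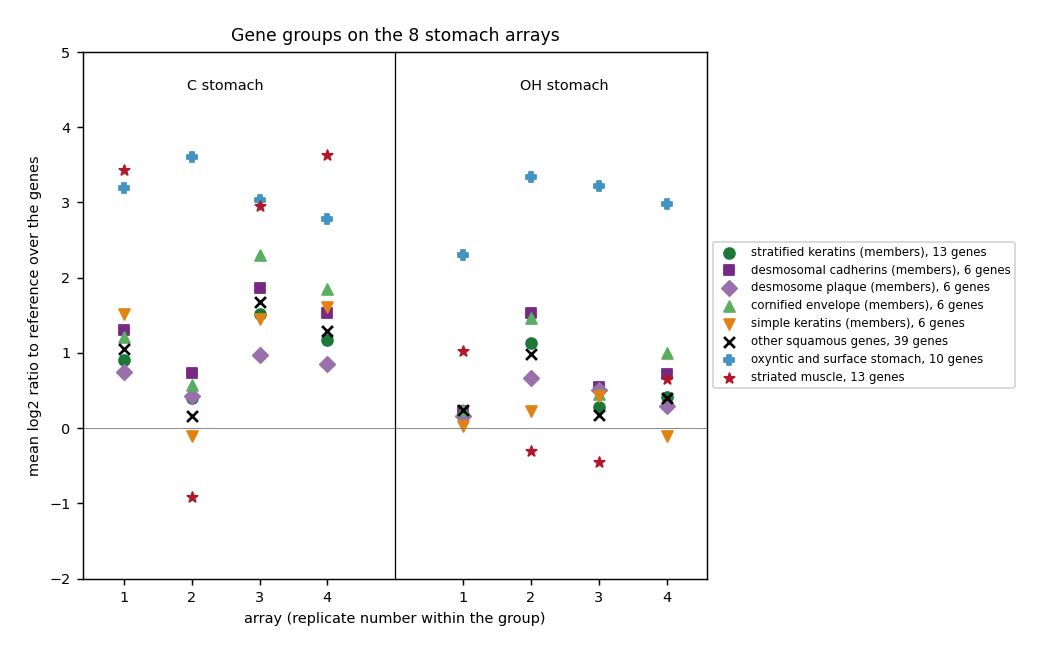
Mean log2 ratio to the reference (y axis) over the genes of each group on the 8 stomach arrays (x axis), for classes of the members and for lists of other genes. On C stomach replicate 2 the squamous, desmosome and simple keratin groups are lower than on the other C arrays and striated muscle genes are at -0.91, while the oxyntic genes are at 3.60, the highest of the 8 arrays.

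In middle intestine 0 members passed the threshold for OH against C, where 0.368% of all probes did. Values lay to both sides of 0, with 22 of 46 below it and a median of 0.01. Krt33b (-0.43, adjusted p = 0.39), Krt12 (-0.81, adjusted p = 0.45) and Dsg2 (0.66, adjusted p = 0.45) had the smallest p. The arrays of OH lay wholly above those of C for Krt5, Krt13, Krt15 and Krt17 and wholly below for Krt12 and Krt16, against 3.72% and 2.13% of all probes. Krt15, for example, read -4.40, -4.57, -4.30 and -4.31 in OH against -4.87, -4.95, -5.00 and -4.75 in C, levels far below those of every stomach array. Krt16 was not above background on any of these arrays, so its values have no order here.

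The difference between the treatment effects, stomach minus middle intestine, was below 0 for 41 of 46 members with a median of -0.52, and 0 passed the threshold. Before adjustment 11 members had lower values and 1 a higher value at a p under 0.05, against 3.87% of all probes lower. Dsc3 gave -1.52 (adjusted p = 0.83), a value that takes in intestine arrays on which it was not above background. Evpl gave -1.04 (adjusted p = 0.83) and Jup -0.67 (adjusted p = 0.83).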

How the data were processed

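Total RNA of 4 groups of 4 arrays was compared. The authors deposited scanner files that, per the file headers, come from Agilent Feature Extraction 10.10.1.1 (the submitters' processing notes name 10.7.3.1) and hold mean, background and processed intensity for every spot and dye. The processed intensity is background-subtracted and Lowess-normalized, with surrogate values for spots not above background. A second file that the authors deposited, with log10 ratios (Cy5 over Cy3), was equal to the scanner output on 15 of 16 arrays and to rounding (at most 0.005) on the first OH stomach array; it served as an alternative. The orientation was the same on all arrays, so a dye effect stays in each ratio. It cancels between groups only where it was alike on their arrays. The Cy3 signal of the reference was higher on the OH slides than on the C slides, so this is not assured for OH against C.

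From the processed intensities, log2 ratios were taken without control and outlier spots, and repeated spots were averaged. The filter kept 21174 of 30367 probes, those that all 4 arrays of some group read well above background in Cy5 and that had at least 3 values a group. A mean per group was fitted over the 16 arrays in limma 3.58.1 under R 4.3.3 (prior degrees of freedom 2.47), with Benjamini-Hochberg adjustment over the probes kept and a threshold of 0.05. The fit was tested on simulated data. Replicates are separate labelled samples, and p-values measure the spread between 4 arrays a group, whose number limits the precision. Per the study's methods each treatment had its own litters. The labels do not state the litter of a rat, so rats of 1 group may be littermates and litter cannot be told apart from treatment. Only stomach and intestine arrays of 1 treatment could come from the same rat, and the labels do not state this. For these, same-numbered arrays gave r of 0.14, 0.17, 0.06 and 0.25 in C. In OH they gave -0.12, 0.20, 0.02 and 0.32. Over all 24 same-numbered pairs of arrays, most of them from different rats, r ran from -0.40 to 0.51. The numbers were not used as pairs in the main fit.

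The members and the lists were chosen with earlier results of these data known. The rule for genes named with values took the principal keratins of each epithelium, all desmosome and envelope genes, the 10 largest differences per tissue comparison and the 3 smallest p per treatment comparison. Genes carry the symbols of the array's design, and 53 of 67 accessions were found in RefSeq, where Krt83 is now Krt87. Alternatives were the deposited ratio table, normexp with an offset of 50, Cy5 alone, other scalings, no filter, only the compared arrays, array weights, a replicate block, the methods' ANOVA and leaving out each array. The GeneSpring processing and the ontology analysis were not repeated.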

Additional observations from a re-analysis of the deposited data

Results flagged for a closer look

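For each tested member, a group of 4 arrays was looked at for 1 array far from the rest, by the gap to its neighbour as a share of the range of the group (Dixon's limit for 4 arrays). This held for 8 of 184 groups (4.35%), where chance gives about 1 in 20. On C stomach replicate 2, Krt20 (share 0.902) and Krt7 (0.890) were far below the other arrays. Krt7 was also far low on OH stomach replicate 4 (0.877) and far high on OH middle intestine replicate 3 (0.843). Krt25 was far high on OH stomach replicate 3 (0.879), and Krt18 was far low on OH middle intestine replicate 3 (0.927). In C middle intestine, replicate 2 was far high for Krt83 (0.840) and far low for Sprr3 (0.835).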

How the results depend on the processing

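The tissue comparisons kept their counts under the 15 alternatives with no array left out (35 to 39 members called in C, 28 to 36 in OH) and without each array in turn (36 to 39 and 28 to 36). Of the members named with values, 31 of 33 kept their call in every setting in C and 25 of 34 in OH. The OH calls of Pkp2, Sprr1b, Jup and Krt18 were each lost in several settings. In OH, Dsg2 turned to -0.095 with ratios scaled between arrays and ranged from -0.077 to 0.45 without 1 array. For OH against C in stomach, the number of members called was 1 without the filter on dim probes (Krt76, above background on no OH stomach array), 11 with array weights, 14 at an unadjusted p under 0.05, 5 by ANOVA and Tukey's HSD, and 0 to 9 without 1 array, with 9 only without C stomach replicate 2 (8 besides Krt76). The median of the members stayed below 0 in each setting, from -0.78 to -0.38. In middle intestine it was 3 from Cy5 alone (Krt33b, Krt81 and Krt83) and 3 at an unadjusted p, and Dsg2 turned to -0.086 from Cy5 alone. For the difference between the treatment effects it was 12 at an unadjusted p and 0 to 3 without 1 array. With the replicate number as a replicate block, 37 members were called in C and 32 in OH, and 0 in each treatment comparison. The causes of these changes were not tested. Precision is limited by 4 arrays a group and, for members near background in intestine, by signal over background.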
